A study of Mus musculus with 3 samples.

Results

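ETO2 is a co-repressor encoded by Cbfa2t3. The regions described here are ETO2 peaks that were called in both replicates and whose summit carried no GATA motif. They were chosen by peak position and by sequence. A replicate 1 peak had to overlap a replicate 2 peak by at least 1 bp, and the 100 bp centred on its replicate 1 summit had to lack 2 patterns on both strands. The first pattern was WGATAR, which is GATA preceded by A or T and followed by A or G. The second was CTG followed by 8 to 10 bases and GATA. Of 2335 replicate 1 peaks, 1003 (43.0%) overlapped a replicate 2 peak, and 234 of those 1003 (23.3%) lacked both patterns. These 234 are called GATA-lacking peaks below, and the other 769 shared peaks are called GATA-containing peaks. The name refers only to these patterns in the window at the replicate 1 summit. GATA in a form that the rule allowed was in 48 of the 234 windows (20.5%). WGATAR lay elsewhere inside the replicate 1 peak in 175 (74.8%).

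The chromatin came from wild-type J1 mouse embryonic stem cells (strain given as C57Bl/6 X Sv129) differentiated into embryoid bodies. Cells positive for FLK1, a receptor that marks mesoderm able to form blood and vessels, were taken at day 4 according to the sample labels (the series text gives an earlier stage). There were 2 ETO2 ChIP samples and 1 input, and the antibody was sc-9741x. The series describes the ChIP samples as separate differentiations. No control ChIP without ETO2 or with an unrelated antibody was analysed here. Replicate 1 peaks were called against the input, and replicate 2 peaks (1873 in all) without one. A peak's summit held 12 to 206 fragments in replicate 1 and 18 to 236 in replicate 2.

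ETO2 does not read DNA letters itself. In blood cells it is held on chromatin by complexes in which SCL and an E protein can bind an E-box, a GATA factor can bind GATA letters, and LMO2 and LDB1 bridge them. ETS, RUNX and KLF factors bind near such complexes at many blood and vessel enhancers. A peak whose summit window lacks both patterns therefore raises the question of which other letters lie there.

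The sequences below are summit windows of GATA-lacking peaks, read from the mm9 genome (NCBIM37), plus strand. Apart from Tal1, near names the gene with the closest protein-coding start site, 195 kb away for Gm2574 and 129 kb for Psmg1. The first 5 are the peaks that ranked highest by fold enrichment over both replicates. The next 5 were shown because they carried ETS, RUNX or KLF letters within 20 bp of the summit, and the last because it carried GATTAG there. Capitals mark ETS letters (AGGAA), RUNX letters (TGTGGT), E-boxes with the letters CAGCTG or CAGATG, KLF letters (CCACCC), the word GATTAG, and a CTG that lies 8 to 10 bases before GATT, each on either strand.

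Near Pdzk1ip1 and Tal1, chr4:114768452-114768551: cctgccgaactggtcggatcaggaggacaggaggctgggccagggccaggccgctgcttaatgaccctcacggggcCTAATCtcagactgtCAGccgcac
Near Gm2574, chr3:142820211-142820310: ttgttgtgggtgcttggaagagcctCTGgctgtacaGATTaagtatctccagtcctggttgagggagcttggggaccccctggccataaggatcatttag
Near Pcp4, chr16:96755453-96755552: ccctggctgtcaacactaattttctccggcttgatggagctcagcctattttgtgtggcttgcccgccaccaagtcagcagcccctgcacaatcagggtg
In Btbd9, chr17:30484186-30484285: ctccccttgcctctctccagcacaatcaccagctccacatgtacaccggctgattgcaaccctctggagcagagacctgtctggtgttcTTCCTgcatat
Upstream of Runx1t1, chr4:13192615-13192714: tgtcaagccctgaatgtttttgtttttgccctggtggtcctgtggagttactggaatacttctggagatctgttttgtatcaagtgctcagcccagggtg
Near Phlda1, chr10:111032825-111032924: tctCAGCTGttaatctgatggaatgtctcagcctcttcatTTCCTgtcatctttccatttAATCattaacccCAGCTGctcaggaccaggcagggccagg
Near Lekr1, chr3:65663125-65663224: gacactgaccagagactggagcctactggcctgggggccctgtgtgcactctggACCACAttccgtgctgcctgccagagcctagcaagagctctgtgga
Near Psmg1, chr16:96083013-96083112: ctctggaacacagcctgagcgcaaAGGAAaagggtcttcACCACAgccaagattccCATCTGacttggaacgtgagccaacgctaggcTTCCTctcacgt
Near Ccng2, chr5:93669091-93669190: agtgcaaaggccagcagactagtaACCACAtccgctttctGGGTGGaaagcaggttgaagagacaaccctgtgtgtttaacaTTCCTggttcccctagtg
Near Vps13d, chr4:144624543-144624642: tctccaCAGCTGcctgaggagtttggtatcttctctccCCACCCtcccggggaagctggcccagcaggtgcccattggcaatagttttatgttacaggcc
Near Elmo1, chr13:20275518-20275617: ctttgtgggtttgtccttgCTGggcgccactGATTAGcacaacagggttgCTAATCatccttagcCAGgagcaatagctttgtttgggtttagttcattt

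The windows at Cbfa2t3 and Art4 met the same rules but ran into transcribed sequence, so only 30 bases around their letters are given. The window at Cbfa2t3 carried ETS letters and both E-box forms, of which the 30 bases shown hold CAGATG (as CATCTG). The window at Art4 carried an E-box.

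At Cbfa2t3, chr8:125223162-125223191: gagcTTCCTcgtcAGGAAcCATCTGcctgg
At Art4, chr6:136806261-136806290: gcacatgaagcgCAGCTGgggagatgcgat

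GATA-lacking peaks covered nearly the whole range of ETO2 enrichment seen at shared peaks. Fold enrichment is the ratio of fragments at the summit to the local background, and its background differed between the lists, so values were not compared between replicates. In replicate 1 the fold enrichment of GATA-lacking peaks ran from 2.03 to 26.8 with a median of 6.29 (quartiles 4.85 and 8.70), beside a median of 7.10 for GATA-containing peaks. In replicate 2 it ran from 1.92 to 12.6 with a median of 5.28 (quartiles 4.36 and 6.51), beside 5.41. The classes overlapped almost entirely in both replicates. These values describe peaks that the peak calls themselves selected, so no test was made. The median number of fragments at the summit was 34 in replicate 1 and 36 in replicate 2, against 39 and 36 for GATA-containing peaks. Over the 234 peaks Spearman's rho between the replicates was 0.48, a description of peaks from the same 2 libraries.

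**Figure D1:**
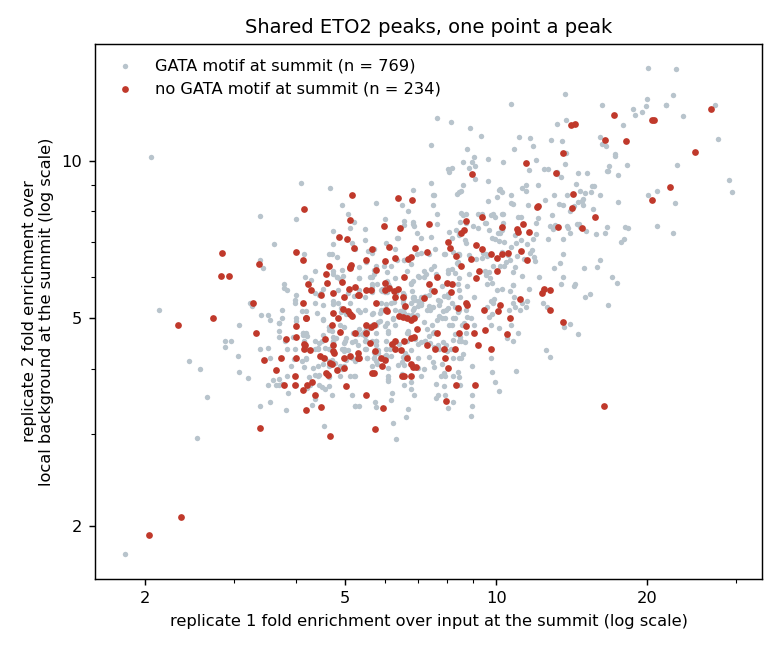
Fold enrichment at the summit of each shared peak in replicate 1 (horizontal, log scale) and replicate 2 (vertical, log scale), with the 234 GATA-lacking peaks in red and the 769 GATA-containing peaks in grey. The red points lie among the grey ones over nearly the whole range, up to 26.8 in replicate 1 and 12.6 in replicate 2.

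The replicates placed the summits of GATA-lacking peaks less closely. The median gap between the replicate 1 and replicate 2 summits was 32 bp (quartiles 12.3 and 65) in GATA-lacking peaks and 24 bp (quartiles 11 and 42) in GATA-containing peaks. The summits lay within 50 bp of each other in 63.7% of GATA-lacking and 80.2% of GATA-containing peaks. Because the rule read the sequence at one of these summits, the gap is given without a test. Peak widths had like medians, 341 and 339 bp in replicate 1. Only 8 GATA-lacking windows (3.42%) had under 80% of their 24-base words unique in the genome, against 4.81% of GATA-containing windows.

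Most GATA-lacking peaks had a GATA motif a short distance from the summit. WGATAR lay inside the replicate 1 peak in 175 of 234 (74.8%, 95% Wilson interval 68.9 to 79.9). The median distance from summit to the nearest WGATAR was 76 bp, and in 151 peaks it was under 100 bp. The 50 bases beyond either edge of the window held a complete WGATAR in 56.4% of these peaks, against 14.1% and 15.8% of the same stretches moved 500 bp to the left and right. WGATAR was thus several times as frequent just outside the window as farther away. In 87 peaks (37.2%) the 100 bp at the replicate 2 summit carried one of the 2 barred patterns, compared with 87.9% of GATA-containing peaks. The replicate 2 window often overlaps the one that the rule read, so this contrast follows in part from the rule. Conversely, 47 peaks (20.1%, interval 15.5 to 25.7) had neither pattern anywhere in the replicate 1 or the replicate 2 peak. Of the 20 highest-ranked GATA-lacking peaks, 19 had WGATAR within the replicate 1 peak.

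The peaks nearest to the threshold of the rule resembled each other. In 68 GATA-lacking peaks a WGATAR reached to within 10 bp of the window edge from outside or crossed it, and their fold enrichment had a median of 6.91 (3.38 to 22.2) in replicate 1 and 5.34 (3.08 to 11.7) in replicate 2. In 56 GATA-containing peaks the sole motif was a WGATAR touching the outer 10 bp of the window, with medians of 7.10 (1.82 to 17.2) and 5.47 (1.76 to 11.1). GATA-lacking peaks with no WGATAR anywhere in the replicate 1 peak (59) had a median of 5.03 in replicate 1 and 5.29 in replicate 2. Those with one (175) had 6.66 and 5.27, so the medians lay apart in replicate 1 and together in replicate 2. The split used the extent of the replicate 1 peak, which comes from the same call as its fold enrichment. No difference is therefore read from the replicate 1 medians.

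ETS letters and 1 form of the E-box were more frequent at GATA-lacking summits than beside them. AGGAA, the core bound by ETS factors such as ERG, FLI1 and ETS1, was in 114 of 234 summit windows (48.7%, interval 42.4 to 55.1), against 32.9% and 34.6% of 100 bp windows centred 500 bp to the left and right of the same summits. The adjusted p was 0.037 in the exact test described next. CAGCTG, an E-box form, was in 38 windows (16.2%, interval 12.1 to 21.5), against 5.98% and 6.84% (adjusted exact p = 0.037). These were the 2 of 23 motifs (8.70%) that passed an exact McNemar test against both flanks with Benjamini-Hochberg adjustment. The p-values compare positions within these libraries, since peaks are not biological replicates. The call for AGGAA was lost under 6 of 11 alternative settings and that for CAGCTG under 4 of 11, while both shares stayed above the mean of their flanks under all 11. With the letters of AGGAA reversed, the share was 26.1% at summits and 27.8% on average in the flanks.

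Several other letters had higher shares at the summit without passing. CAGATG, the other E-box form shown above, was in 15.0% of summit windows against 6.41% and 7.26% of flanks (adjusted exact p = 0.076), and it passed under 5 of 11 alternative settings. AGGAAG, a longer ETS form, was in 23.9% against 15.0% and 14.1% (adjusted exact p = 0.076). GGAATG, the letters of TEAD factors, was in 11.5% against 5.13% and 3.42% (adjusted exact p = 0.077). TGTGGT, the RUNX letters, was in 29 windows (12.4%, interval 8.77 to 17.2) against 5.98% and 6.41% (adjusted exact p = 0.14). Each of these 4 shares exceeded both of its flanks but the exact McNemar test with adjustment over 23 motifs did not call it.

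KLF letters and the general E-box did not separate from the flanks. CCACCC was in 30 windows (12.8%, interval 9.13 to 17.7) against 11.5% on one side and 6.84% on the other (adjusted exact p = 1). CANNTG, which matches any E-box, was in 110 windows (47.0%) against 39.3% and 40.6% (adjusted exact p = 0.51). CAGGTG and CACGTG, 2 further E-box forms, were in 5.13% and 0.855% of windows and in 5.77% and 0.855% of flanks on average. CAGCTG and CAGATG together were in 67 windows (28.6%), and the E-box forms were not tested against each other. GCATGCGC, the NRF1 letters, was in 0 of 234 windows (interval up to 1.62%).

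**Figure D2:**
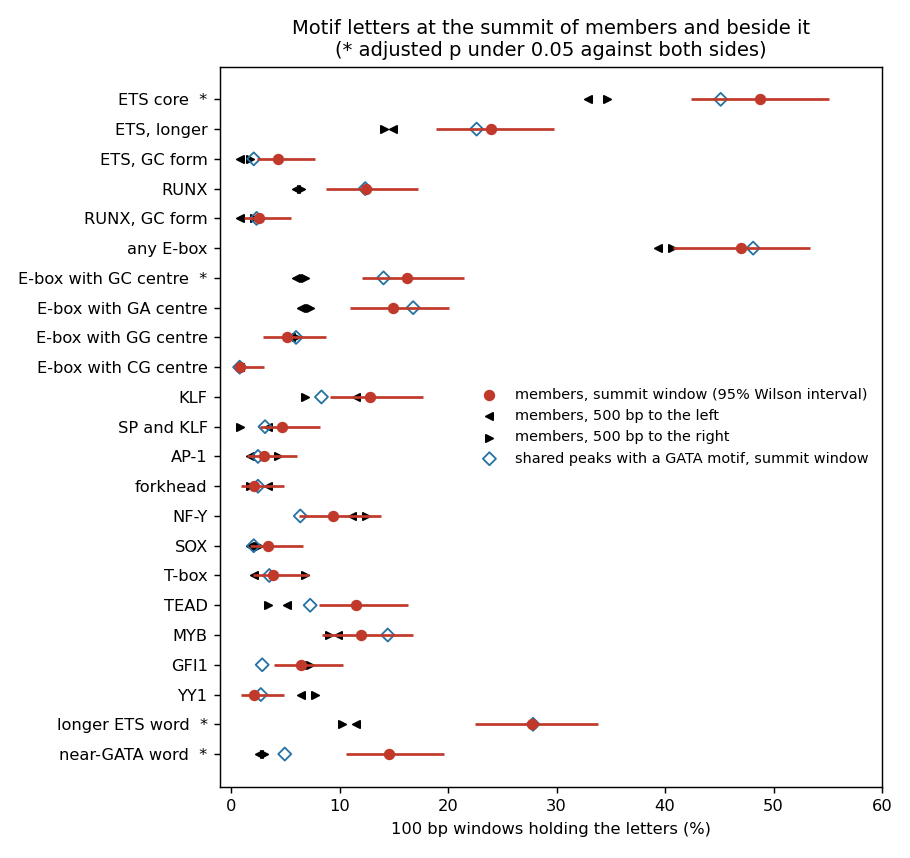
Share of 100 bp windows holding each set of letters (horizontal, %), for GATA-lacking summits (red, bars are 95% Wilson intervals), for windows 500 bp to either side of the same summits (black triangles) and for GATA-containing summits (open diamonds). An asterisk marks the 2 motifs and 2 words that passed against both sides, and the near-GATA word at the bottom stands at 14.5% in red and 4.94% in GATA-containing peaks.

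For most of these letters no difference between GATA-lacking and GATA-containing summits was detected. AGGAA was in 48.7% of GATA-lacking and 45.1% of GATA-containing windows, and TGTGGT was in 12.4% of both. The motif with the lowest p in Fisher's exact test was AAATCA, the letters of GFI1 factors, in 6.41% against 2.86% (exact p = 0.017, adjusted p = 0.32). On the other strand AAATCA reads TGATTT, which shares TGAT with WGATAR, so its comparison is not free of the rule. In the flanks of GATA-lacking peaks it was in 6.41% and 7.26%. CCACCC was in 12.8% against 8.32% (exact p = 0.054, adjusted p = 0.34) and GGAATG in 11.5% against 7.28% (exact p = 0.043, adjusted p = 0.34). None of the 19 motifs tested passed after adjustment, and 2 had an unadjusted p under 0.05. CAGCTG and CAGATG contain letters that the rule used (CTG), so their shares are given without a test. The share of CAGCTG was 16.2% against 14.04% and that of CAGATG 15.0% against 16.8%. Over all 2335 replicate 1 windows AGGAA was in 43.5%, TGTGGT in 10.8%, CAGCTG in 12.6% and CCACCC in 9.42%.

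A screen of all 6-letter words picked out 2. Of 2032 words free of GATA, with a word and its reverse complement counted as 1, CAGGAA and GATTAG passed the McNemar test against both flanks (0.0984% of words). CAGGAA, which contains the ETS core, was in 65 summit windows (27.8%, interval 22.4 to 33.8) against 11.5% and 10.3% of flanks (adjusted exact p = 0.026). GATTAG, whose reverse complement is CTAATC, was in 34 windows (14.5%, interval 10.6 to 19.6), or about 1 in 7, against 6 windows on the left and 7 on the right (adjusted exact p = 0.026). Before adjustment 58 words had p under 0.05 with a higher share at the summit and 57 with a lower one. Under 8 of 11 alternative settings GATTAG did not pass against the flanks, and CAGGAA did not under 4. Among the 83 other words made of the same letters as GATTAG or its complement, the median share of summit windows was 2.56% and the highest 10.7%. Among 59 with the letters of CAGGAA the median was 6.41% and the highest 21.4%, for ACAGGA, which overlaps it.

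GATTAG differs from GATAAG, 1 of the forms of WGATAR, by A4T, with positions counted from 1 at the 5′ end. It also differed between the classes of shared peaks. It was in 14.5% of GATA-lacking and 4.94% of GATA-containing windows (Fisher's exact test over the same 2032 words, adjusted p = 0.0016). Of the 526 GATA-lacking peaks called in replicate 1 alone it was in 6.65%. The difference passed under 5 of 9 alternative settings. It did not pass when all replicate 2 peaks were split by the letters at their own summits, where GATTAG was in 5.18% of those without a GATA motif (adjusted exact p = 0.97). With the replicate 2 summits of the shared peaks the share was 11.7% (adjusted exact p = 0.22). In this screen, added after the first results were seen, 12 words (0.591%) passed. Of these, GATTAG itself, the overlapping word AGATTA (13.2% against 5.33%) and the word CGGAAC (3.85% against 0.130%) were more frequent in GATA-lacking windows. AGATTA shares the letters AGAT, and GATTAG the letters GAT, with forms of WGATAR. Their comparison between the classes is therefore not free of the rule. The other 9 also share letters with the barred patterns, and nothing is read from their tests. They are CTGATT, which holds CTG (14.1% against 4.29%), and 8 less frequent words that all hold TAA, which overlaps WGATAR. Any GATA at all, including forms that the rule allowed, was in 20.5% of GATA-lacking summit windows and in 32.1% and 36.8% of their flanks.

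Base composition moved with these letters. The median G+C content of GATA-lacking windows was 53.5%, against 47.0% for the mean of their flanks and 51.0% for GATA-containing windows. Its part in the shares was not tested beyond the words of equal letters above. At the replicate 2 summits of the same 234 peaks, GATTAG was in 29 windows (12.4%) and CAGGAA in 70 (29.9%). Peaks with GATTAG at the replicate 1 summit had a median fold enrichment of 6.35 and 5.04 in replicates 1 and 2, and those without it 6.27 and 5.33. Of the 34 peaks with GATTAG, 23 also had WGATAR elsewhere in the replicate 1 peak and 11 did not.

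**Figure D3:**
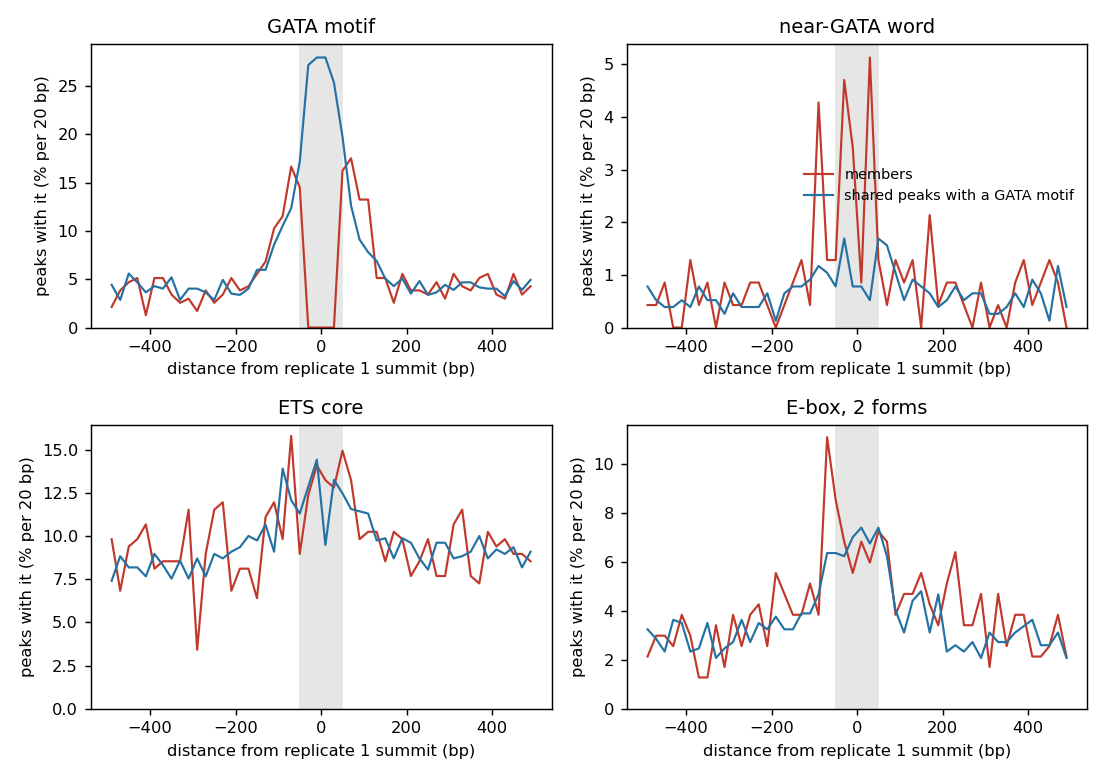
Share of peaks holding each set of letters per 20 bp (vertical, %) by distance from the replicate 1 summit (horizontal, bp), for GATA-lacking peaks (red) and GATA-containing peaks (blue), with the 100 bp window of the rule in grey. The GATA motif is at 0 in the middle of the window by construction and reaches 17.5% of GATA-lacking peaks 60 to 80 bp to the right of the summit, and GATTAG (near-GATA word) stays at or under 5.13% in any 20 bp.

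Some GATT letters lay behind a CTG at the distance that the rule used for GATA. CTG, then 8 to 10 bases, then GATT was found in 25 GATA-lacking windows (10.7%, interval 7.34 to 15.3), in 2 of the windows 500 bp to the left and in 10 of those to the right. It was in 7.02% of GATA-containing windows. The highest counts fell at 9 bases (14 windows, against 1 and 4 in the flanks, p = 0.021) and 8 bases (10 windows, against 0 and 1, p = 0.012) in the exact McNemar test. None of 48 spacings of CTG with GATT or GATC or GATG passed after adjustment (adjusted exact p = 0.51 for these 2 spacings). The screen was added after GATTAG had been seen, and the pair is given as a description. Of the 20 highest-ranked GATA-lacking peaks 5 carried the pair, among them the top-ranked peak near Tal1, and 2 carried GATTAG. Of the 50 highest-ranked, 8 carried the pair and 7 carried GATTAG, and a link with rank was not tested. The pair ended in GATTAG in the 3 peaks shown next, chosen because a gene nearby encodes a member of the SCL complex or because the pair occurred 2 times. It also ended in GATTAG in peaks with Mad1l1, Commd7, Slc1a3, Frmd4a, Bhlhe40, Ets1, Dmbx1 or Cdca7l as nearest gene. The peak near Tal1 has Pdzk1ip1 as its nearest gene.

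Near Tal1, chr4:114768528-114768545, minus strand: CTGacagtctgaGATTag
Upstream of Lmo2, chr2:103734098-103734114, plus strand: CTGgcctgagaGATTag
Near Elmo1, chr13:20275537-20275554, plus strand: CTGggcgccactGATTag
Near Elmo1, chr13:20275568-20275585, minus strand: CTGgctaaggatGATTag

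**Figure D4:**
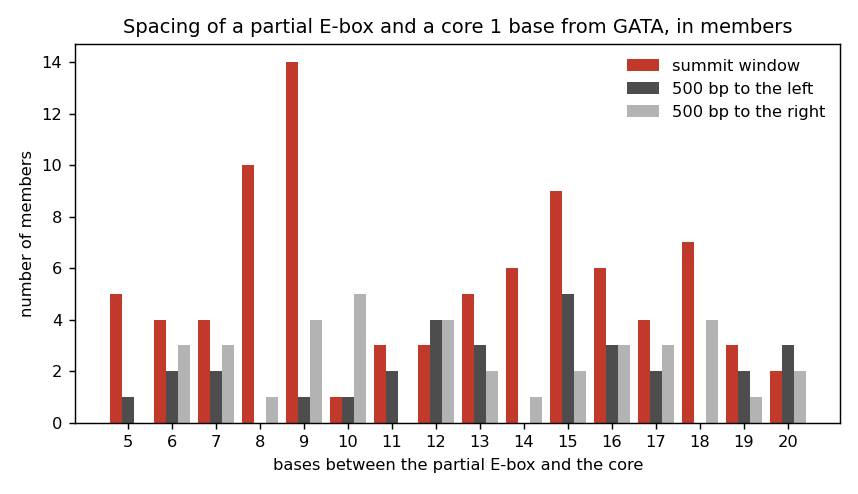
Number of GATA-lacking peaks (vertical, of 234) with a partial E-box (CTG) a given number of bases before GATT (horizontal), in the summit window (red) and in windows 500 bp to the left (dark grey) and right (light grey). The tallest red bars are 14 peaks at 9 bases and 10 at 8 bases, and no spacing passed after adjustment.

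The letters marked in the sequences above left part of the set without a match. Of 234 windows, 160 (68.4%) held at least 1 of the ETS, RUNX and KLF letters and the E-box forms CAGCTG and CAGATG, and 74 (31.6%) held none. Both ETS and E-box letters (CAGCTG or CAGATG) were in 38. Windows with AGGAA had a median enrichment of 6.498 (replicate 1) and 5.22 (replicate 2), and windows without it 6.06 and 5.34. The quartiles of these groups overlapped in both replicates.

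GATA-lacking peaks lay mostly away from promoters. By their summits 128 (54.7%) were between genes, 92 (39.3%) in introns, 12 (5.13%) in untranslated exon parts and 2 in coding exons. The median distance to the nearest protein-coding start site was 26.8 kb (quartiles 12.2 and 66.8). Summits within 1 kb of a start site numbered 19 (8.12%, interval 5.26 to 12.3), against 36 of 769 GATA-containing peaks (4.68%) with p = 0.049 in Fisher's exact test. This call rested on small numbers. It was lost under 7 of 10 alternative settings, and with all replicate 2 peaks in place of shared ones the share was 4.24%, below that of GATA-containing peaks. In the class of GATA-containing peaks with the CTG and GATA pair the share was 7.34%, and in the others 2.24%.

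GATA-lacking peaks seen in a single list had quite different positions. Of 526 such peaks called in replicate 1 alone, 193 (36.7%, interval 32.7 to 40.9) lay within 1 kb of a start site, against 8.12% of the shared ones (Fisher's exact test, adjusted p = 1.2e-17 over 3 comparisons). Of 605 called in replicate 2 alone, 19 (3.14%, interval 2.02 to 4.85) did (adjusted exact p = 0.0069). These comparisons were added after the first results were seen, and the lists differ in their controls as well as in their libraries.

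**Figure D5:**
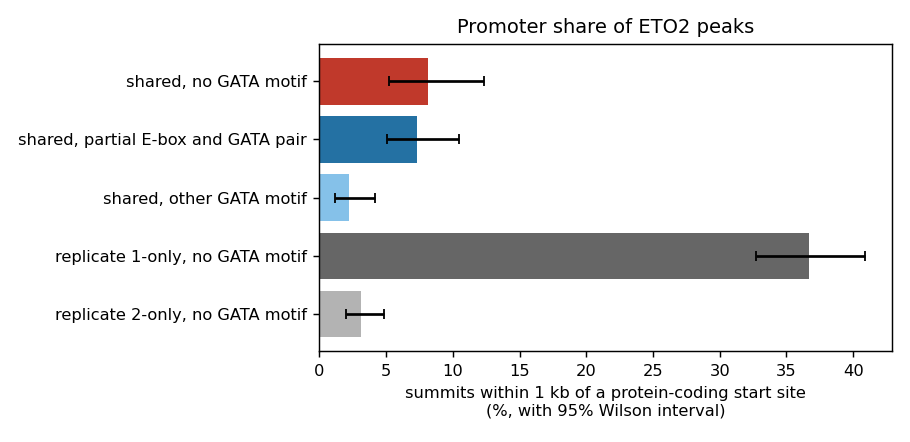
Share of ETO2 peak summits within 1 kb of a protein-coding start site (horizontal, %, bars with 95% Wilson intervals) by class. GATA-lacking shared peaks stand at 8.12%, between the 3.14% of replicate 2-only and the 36.7% of replicate 1-only peaks that lack a GATA motif.

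The 234 peaks had 220 different nearest genes, and 199 peaks (85.04%) lay within 100 kb of theirs. Of these genes 58 were also nearest to a GATA-containing peak, which is 26.4% of the 220 genes and 8.61% of the 674 genes nearest to GATA-containing peaks. Another shared peak lay within 10 kb of 31 GATA-lacking peaks (13.2%), compared with 10.01% of GATA-containing ones. Ets1, which encodes an ETS factor of endothelium and blood, was nearest to 4 GATA-lacking peaks and to no GATA-containing one. No other gene was nearest to more than 2. A nearest gene is an assignment by distance, and no expression was measured here.

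The top-ranked GATA-lacking peak (chr4:114768248-114768728) lay 7.17 kb from the start of Pdzk1ip1 and 36.4 to 39.5 kb from the annotated starts of Tal1, which encodes SCL. Its fold enrichment was 26.8 in replicate 1 and 12.6 in replicate 2, with 119 summit fragments in each, and it ranked 4th of the 1003 shared peaks. Its window held GATTAG and no ETS, RUNX or KLF letters, and the nearest WGATAR lay 79 bp from the summit. The next 3 had nearest genes without a known blood role in the lists used here. They were 195 kb from Gm2574 (20.7 and 11.97 in replicates 1 and 2), 66.3 kb from Pcp4 (20.4 and 11.9) and in an intron of Btbd9 (24.9 and 10.4). Near Phlda1 and G930045G22Rik the values were 22.2 and 8.89, and 14.3 and 11.7. Of the peaks in this paragraph, those at Btbd9 and G930045G22Rik carried a barred pattern at the replicate 2 summit and the others did not.

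Genes of the ETO2 family itself were among the nearest genes. A peak 179 bp (0.179 kb) upstream of a start of Cbfa2t3 (chr8:125222931-125223518), the gene of ETO2, had a fold enrichment of 18.2 in replicate 1 and 10.9 in replicate 2 from 103 and 156 summit fragments. Cbfa2t3 was also nearest to 4 GATA-containing peaks. A peak 478 kb upstream of Runx1t1, which encodes the related co-repressor ETO (MTG8), had 17.2 and 12.2. Gse1, which encodes a component of a LSD1-containing co-repressor complex, had a peak 26.5 kb upstream with 10.1 and 5.15. At the replicate 2 summit the peaks at Cbfa2t3 and Gse1 carried a barred pattern, and that upstream of Runx1t1 did not. Of the 24 co-repressor and partner genes listed, 2 had a GATA-lacking peak as their nearest within 100 kb, and both also had GATA-containing peaks. Peaks with a gene of this list nearest within 100 kb made up 0.855% of GATA-lacking and 1.95% of GATA-containing peaks.

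Genes of the SCL complex and of blood transcription factors had 1 GATA-lacking peak each. Of 45 such genes, 6 were nearest to a GATA-lacking peak within 100 kb, and 12 to a GATA-containing peak. Peaks with such a gene nearest made up 2.56% of GATA-lacking and 1.95% of GATA-containing peaks. Of the 6, Lyl1 and Runx1 were also nearest to a GATA-containing peak, beside 26.4% of all 220 nearest genes. The peak at Hhex, a homeobox gene of blood and vessel precursors, lay in its intron 0.973 kb from a start, with 14.1 in replicate 1 and 11.7 in replicate 2. The peak 64.1 kb upstream of Lmo2, the bridging subunit, had 11.3 and 7.56, and its window held GATTAG as well as CAGGAA and an E-box.

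The other 4 peaks of this group had 24 to 48 summit fragments in replicate 1 and 36 to 94 in replicate 2. The peak at Erg (19.96 kb), an ETS gene of endothelium, had 39 and 46 summit fragments, and that at Runx1 (3.63 kb), the master factor of definitive blood, had 48 and 41. The peak in a Gata1 intron had 24 and 36 (exact 95% Poisson intervals 15.4 to 35.7 and 25.2 to 49.8), and that near Lyl1, a close relative of SCL, had 31 and 94. At Runx1 the replicate summits lay 117 bp apart and 5 GATA-containing peaks were present, while at Gata1 they lay 29 bp apart. The 100 bp at the replicate 2 summit carried a barred pattern at Lmo2, Erg, Runx1 and Gata1, but not at Hhex and Lyl1. Over all GATA-lacking peaks the share with such a pattern there was 37.2%.

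Endothelial genes were represented by 5 of 40, and 1 of these 5 (Egfl7) was also nearest to a GATA-containing peak. Genes of this list were nearest, within 100 kb, to 2.99% of GATA-lacking and 1.17% of GATA-containing peaks. At Pecam1, the adhesion molecule CD31, the summit lay 0.023 kb from a start in an untranslated exon part, with 8.51 in replicate 1 and 7.27 in replicate 2. This window held none of the ETS, RUNX, KLF or E-box letters shown above and the nearest WGATAR lay 1032 bp away. Of the 4 peaks nearest to Ets1, 3 lay 21.9 to 28.8 kb from a start and the lowest-ranked 405 kb away. The highest (chr9:32414759-32415200) had 14.2 and 8.63, and the other three ran from 6.07 to 6.67 in replicate 1 and from 4.52 to 6.49 in replicate 2. All 4 Ets1 windows held AGGAA, beside 48.7% of all GATA-lacking and 45.1% of GATA-containing windows, and a link with this gene was not tested. Acvrl1, a receptor for BMP9, had 6.65 and 5.01, and Egfl7, a secreted vessel protein, had 4.74 and 4.44. At the replicate 2 summit the highest Ets1 peak carried a barred pattern, and those at Pecam1, Acvrl1 and Egfl7 did not.

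Red cell and megakaryocyte genes were represented by 5 of 36, and 4 of these are described. Genes of this list were nearest, within 100 kb, to 2.14% of GATA-lacking and 0.910% of GATA-containing peaks. In an intron of Alas2, the first enzyme of haem synthesis in red cells, fold enrichment was 12.8 in replicate 1 and 5.65 in replicate 2. F2rl2, a thrombin receptor gene, had 12.3 and 5.57 in an intron of its neighbour Iqgap2. The promoter peak of Itga2b, the platelet integrin CD41, had 5.95 and 3.36, and the peak near Thbs1, a secreted glycoprotein of platelets, 5.70 and 4.85. These 4 fell from the upper to the lower part of the ranking, with 26 to 48 summit fragments in replicate 1. At the replicate 2 summit a barred pattern was present at Alas2, F2rl2 and Itga2b, and absent at Thbs1.

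Genes of other fates and of signalling were represented too. Of 36 cardiac, paraxial and primitive streak genes 2 were, Tbx3 (4.14 and 8.08 in replicates 1 and 2) and Hoxb1 (5.73 and 3.07). Of 24 BMP and TGF-beta genes 3 were, the inhibitory Smad6 (5.16 and 8.60) and Smad7 (4.29 and 5.65) and the signal carrier Smad1 (4.56 and 4.55). Of 22 Polycomb genes 0 were, and 1 was nearest to a GATA-containing peak. Cardiac, paraxial and primitive streak genes were nearest, within 100 kb, to 0.855% of GATA-lacking and 0.520% of GATA-containing peaks. For BMP and TGF-beta genes these shares were 1.28% and 1.04%. Among the peaks named in this paragraph, only that at Smad1 carried a barred pattern at the replicate 2 summit. Over all 224 listed genes found in the annotation, 24 GATA-lacking peaks (10.3%) and 57 GATA-containing peaks (7.41%) had a listed gene nearest within 100 kb. Neither this difference nor those of the single lists were tested.

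Among the promoter peaks, Art4, which encodes a red cell surface enzyme, ranked next after Cbfa2t3. Its summit lay 0.02 kb upstream of the start, with a fold enrichment of 16.4 in replicate 1 and 10.9 in replicate 2. At Nfe2l2, which encodes the stress-response factor NRF2, the values were 14.2 and 8.12, and at Tnni1, which encodes a slow skeletal muscle troponin, 11.6 and 7.32. Together with Cbfa2t3 and Hhex these were the 5 highest-ranked promoter peaks, and all 5 had WGATAR within the replicate 1 peak. At the replicate 2 summit a barred pattern was present at Cbfa2t3, Art4 and Tnni1, and absent at Hhex and Nfe2l2.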

How the data were processed

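FLK1+ mesoderm chromatin was crosslinked, sonicated and sequenced as read pairs. According to the study's methods and the submitters' processing notes (Bowtie, Trim Galore, SAMtools, bedtools, MACS2 2.0.10), the authors aligned reads to mm9, removed duplicates and called peaks per replicate, replicate 1 against input and replicate 2 without. In the deposited lists each peak has a position, a score, a fold enrichment (ratio) and −log10 p and q. The score is the −log10 q multiplied by 10 and cut to a whole number. A further list for the whole series was not used. Total reads were not taken from the lists. Calling without an input can leave regions of high background in replicate 2.

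Summit fragments were recovered by solving the deposited fold and p-value for whole fragments under a Poisson model, and matched 100% of peaks in both lists within 0.01 in −log10 p (scale 1.34 in replicate 1, 1 in replicate 2). The fragments limit the precision, and intervals cover counting error only. Windows, genes and exons came from NCBIM37 and GENCODE vM1 in Python 3 (SciPy). Of 227 listed genes 224 matched by name. A shared peak's partner was the replicate 2 peak with the longest overlap. Motifs (23) and 6-letter words were compared between the summit window and both flanks by a 2-sided exact McNemar test, with the larger p kept, and between classes by a 2-sided Fisher's exact test, with Benjamini-Hochberg adjustment and a threshold of 0.05. The word screen was checked on generated sequences. Peaks were ranked by the mean of their ranks in both replicates. The named peaks were the first 10, the best-ranked peak of each listed gene within 100 kb, and the 5 best-ranked within 1 kb of a start site. The peak class, motifs and gene lists were chosen with earlier results of these data known. The peak of 1 listed gene is not reported here.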

Additional observations from a re-analysis of the deposited data

How the results depend on the processing

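The number of GATA-lacking peaks was set by the window, with 445 at 60 bp and 84 at 200 bp. It was 849 for all replicate 2 peaks read at their own summits and 760 for all replicate 1 peaks, the values without replicate 1 and without replicate 2. AGGAA was above the mean of its flanks under all 11 settings but no longer passed with a 60 bp window (29.4%), a 200 bp window (70.2%), an overlap of at least 50% of the replicate 1 peak (48.3%), a q-value of at most 1e-05 in both lists (48.8%) any GATA barred (50%) or without replicate 1 (40.05%, adjusted exact p = 0.070). It passed without replicate 2 (41.97%). CAGATG passed with replicate 2 summits, a 60 bp window, the 50% overlap, without replicate 1 and without replicate 2 (adjusted exact p from 0.00015 to 0.042 in these 5). TGTGGT and CCACCC did not pass under any of 11 settings. CANNTG passed with replicate 2 summits alone (51.2%).

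The promoter share did not differ by the test with replicate 2 summits (7.08%), a 60 bp window (6.74%), a 200 bp window (5.95%), the 50% overlap (7.80%), the q-value limit (7.83%), unique windows (7.96%) or a promoter of 2500 bp (13.2%). It was 4.24% without replicate 1, where the direction turned, and 27.9% without replicate 2.

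Motifs that passed numbered 7 with replicate 2 summits, 0 with a 200 bp window, 0 with the q-value limit, 0 with any GATA barred and 1 with flanks free of GATA motifs. They were 2 without replicate 1 and 6 without replicate 2. Words that passed numbered 12 with replicate 2 summits, 9 at 60 bp, 0 at 200 bp, 0 with the 50% overlap, 1 with the q-value limit, 1 with any GATA barred, 16 with flanks at 1000 bp and 0 with flanks free of GATA motifs. They were 36 without replicate 1 and 154 without replicate 2. GATTAG was in 6.29% of windows at 60 bp and 23.8% at 200 bp, and in 5.18% without replicate 1. Fewer peaks or pairs entered the test at 200 bp, with the overlap and q-value limits, with any GATA barred and with flanks free of GATA motifs. Whether this or any other part of a setting caused a lost or gained call was not tested.

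No paired analysis was possible because the input is 1 sample, so no groups share 2 replicate numbers. The 2 ChIP libraries and the fragments per summit limit the precision, and a missed threshold in 234 windows does not show that shares are equal.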
